A study of Oryza sativa with 18 samples.

Results

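Cytochrome P450, glycosyltransferase, phenylpropanoid, flavonoid and terpenoid genes of the rice (Oryza sativa) embryo were followed in germinating seeds of a wild type line and of the csa mutant. Members were chosen by their annotation text, which had to name a cytochrome P450, a UDP-glucosyl or UDP-glucuronosyl transferase, a glucosyltransferase, a terpene, terpenoid or limonene enzyme, a flavonoid, chalcone or anthocyanin enzyme, phenylalanine ammonia-lyase, cinnamoyl-CoA reductase or isopenicillin N synthase. Genes of the first stretch of chromosome 1 (identifiers that start with LOC_Os01g0) and LOC_Os01g66100 were left out, which removed 6 matching genes. This left 79 of the 3149 genes that the authors' tables list at any time. Of these, 7 were phenylpropanoid genes, of the phenylalanine ammonia-lyase and cinnamoyl-CoA reductase types. The others were 38 cytochrome P450 genes, 27 glycosyltransferase genes, 4 flavonoid genes, 2 genes of the isopenicillin N synthase type and 1 terpenoid gene. Terpenoid genes therefore form a very small part of the set. The tables list only genes that the authors called different between the genotypes, so every member was called at 1 or more times, and members of these families that were not called are not analysed here.

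Total RNA was sequenced from seeds that had imbibed, that is taken up water as germination opens, for 3 h, 6 h or 12 h, and the labels give the embryo as the tissue. The 6 groups were wild type at 3 h, 6 h and 12 h, from the line named 9522 in the sample titles, and csa at the same times. Each group had 3 samples, 18 in all, with 5 seeds per extraction. CSA, for CARBON STARVED ANTHER, is a MYB-type regulator that steers sugar supply to the anther. The labels name no allele and no further genotype or treatment, and all seeds were germinated in the same medium. They do not say whether the 3 samples of a group came from separate plants, so the p-values measure only how far these samples vary, perhaps for technical reasons. One wild type sample at 12 h, replicate 3, is wild type by title and description but carries the mutant in its genotype field. It was treated as wild type.

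Cytochrome P450 enzymes insert oxygen into small molecules and act in the making and the breakdown of plant hormones, phenolics and defence compounds. The glycosyltransferases of the UGT family attach a sugar from a UDP-sugar to hormones, flavonoids and other acceptors, which commonly stores or inactivates the acceptor. Phenylalanine ammonia-lyase opens the phenylpropanoid pathway that leads to lignin and flavonoids, and terpenoid enzymes build molecules from isoprene units, gibberellins among them. In a germinating embryo such enzymes set the balance of hormones, the supply of cell wall phenolics and chemical defence.

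CSA itself (LOC_Os01g16810) was lower in csa at 6 h, with raw counts of 92, 81 and 201 against 310, 305 and 380 in wild type and a log2 ratio of -1.38 ± 0.40, and it was not listed at 3 h or 12 h. Totals over all genes are not used here, so the depth of each library is unknown, and the scaling factors between libraries of one time, recovered from the tables, lay between 0.919 and 1.1. A scaled count is a raw count over its library's factor. Log2 ratios set the mean of the 3 csa libraries over that of the 3 wild type libraries, after scaling, with a standard error from their spread, and the error of a mean count is the SD (n = 3). A gene is listed where the authors' log2 fold change was at least 1 in size with a false discovery rate (FDR) of at most 0.05. Listed transcripts used as markers of the starchy endosperm and the aleurone stood higher in csa at each time. They were picked by annotation as glutelin, prolamin or alpha-amylase, and their tissue of origin was not tested. All 4 listed glutelin and prolamin genes at 3 h were higher, with summed scaled counts of 5128 to 6657 in csa libraries against 2111 to 2595 in wild type libraries. The 2 listed at 6 h summed to 319 to 518 against 166 to 207, and the 1 listed at 12 h had 1719 to 4019 against 460 to 1018. With alpha-amylase included, 8, 4 and 1 such entries were listed at 3 h, 6 h and 12 h. The alpha-amylase gene LOC_Os09g28400 was entered more than once at 3 h. Every entry was higher in csa, and none was at 0 in any library. The part of this in the results below was not tested. In whole tissue, fewer cells of a type and less RNA per cell cannot be told apart.

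Most member genes differed at 6 h. At 3 h, 23 members were listed, 15 higher and 8 lower in csa, where the authors' calls took 4.91% of the 21397 genes tested, 3.49% higher and 1.42% lower. At 6 h, 65 members were listed, 44 higher and 21 lower, with 10.3% of 23117 genes called, 6.03% higher and 4.3% lower. At 12 h, 1 member was listed, higher in csa, with 0.4% of 21242 genes called, 0.212% higher and 0.188% lower. By time, 55 members were listed at 6 h alone, 13 at 3 h alone, 10 at both of these times and 1 at 12 h alone. The share of higher members, 65.2% at 3 h and 67.7% at 6 h, stood beside 71% and 58.4% of all listed genes, and the median deposited log2 fold change of members, 1.26 and 1.24, beside 1.20 and 1.11. The 3 libraries of each genotype did not overlap in 22 of 23 members at 3 h and 60 of 65 at 6 h (95.7% and 92.3%), against 96.2% and 97.3% of all listed genes. These shares are close to those of all listed genes and are no result about the members.

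At 3 h the direction of some members changed with TMM factors computed over the listed genes, and of none with no scaling between libraries. With TMM factors, which assume that most of the listed genes do not differ, the median of all listed genes moved by -1.23 on the log2 scale at 3 h and by -0.58 at 6 h. The listed genes were listed for differing, 71% of them higher in csa at 3 h. Relative to that shift, 5 of the 23 members at 3 h took the other sign, which gave 10 higher and 13 lower. At 6 h 0 of the 65 did. So did 261 of all 1050 listed genes at 3 h, so this is no result about the members. With no scaling between libraries, 0 of the 23 and 0 of the 1050 took the other sign. An edgeR refit with TMM factors kept 8 calls at 3 h (0 higher, 8 lower) and 32 at 6 h (11 higher, 21 lower). Over all listed genes it kept 33% and 59.8% of the calls. Values below use the scaling recovered from the authors' fold changes.

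**Figure D1:**
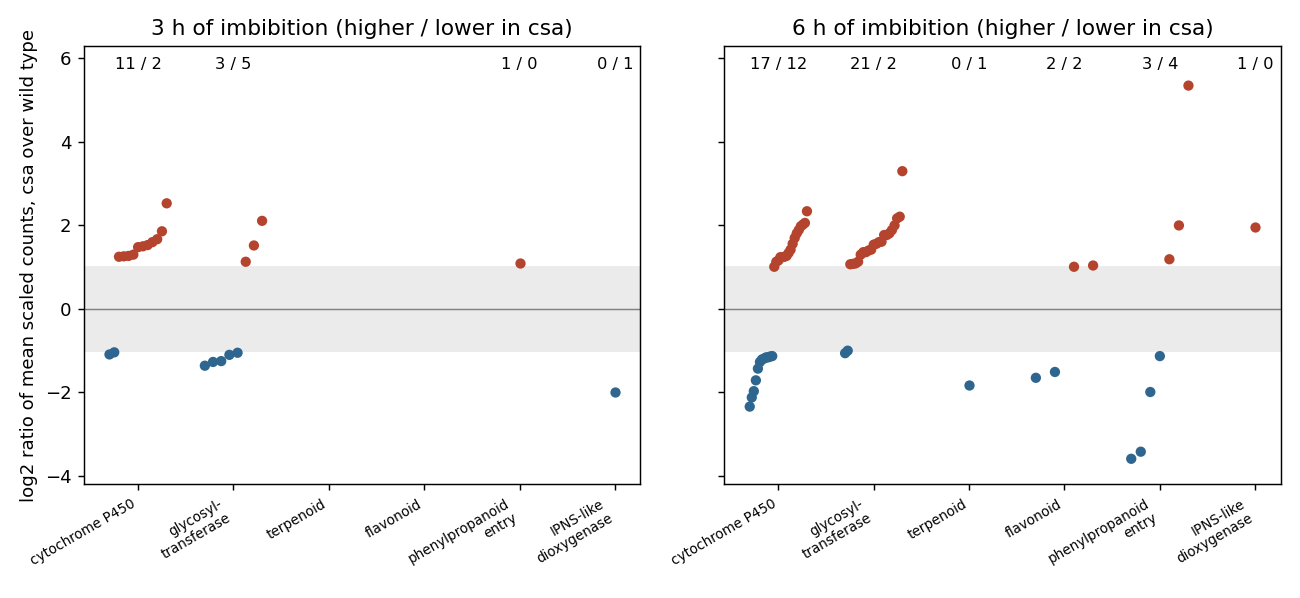
Log2 ratio of mean scaled counts, csa over wild type, for every member listed at 3 h (left) and 6 h (right), by enzyme family, with the numbers higher and lower above each family and the grey band marking ratios that the tables do not list. Glycosyltransferase genes stood at 3 higher and 5 lower at 3 h and at 21 higher and 2 lower at 6 h, while P450 genes stood at 11 and 2, then 17 and 12. With TMM factors, 5 of the points at 3 h (3 P450, 1 glycosyltransferase, 1 phenylpropanoid) fall just below 0 and none at 6 h changes sign.

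Glycosyltransferase genes were mostly lower in csa at 3 h and mostly higher at 6 h. At 3 h, 3 of the 8 listed genes were higher and 5 lower (37.5% higher, beside 71% of all listed genes), with a median deposited log2 fold change of -1.08. At 6 h, 21 of 23 were higher (91.3%, beside 58.4%), with a median of 1.54, and the lower ones were LOC_Os05g42040 and sucrose synthase, an enzyme that the search terms caught by its alternative name. Without sucrose synthase and a sterol glucosyltransferase the family stood at 20 higher and 1 lower. An edgeR refit of the listed genes kept 20 of the 21 higher calls at 6 h, and between 14 and 18 when any 1 library was left out, the fewest without wild type replicate 2. With TMM factors it kept 4, and the median was 0.96. Over all listed genes the same refits kept 95.2%, 66% to 82% and 59.8% of the calls.

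The strongest difference among glycosyltransferases at 6 h belonged to LOC_Os05g45110, a UGT of undescribed substrate. Its raw counts were 120, 196 and 218 in csa against 27, 17 and 11 in wild type. No csa library came near the wild type range. The mean scaled count was 180 ± 48.2 against 18.3 ± 8.63, a log2 ratio of 3.30 ± 0.45, with an FDR of 3.25e-15 in the authors' deposited table. LOC_Os05g45100, numbered next to it, had 326, 307 and 586 counts in csa against 130, 107 and 98 in wild type, a log2 ratio of 1.89 ± 0.32. LOC_Os05g12450 had 193, 229 and 333 against 61, 62 and 47, at 2.17 ± 0.27. In both genes every csa library stood above every wild type library.

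LOC_Os10g30560 is annotated as similar to UDP-glucuronosyl and UDP-glucosyl transferases, and was one of the more highly counted members. Its raw counts at 6 h were 1229, 1466 and 1247 in csa against 616, 407 and 499 in wild type, a log2 ratio of 1.42 ± 0.21. LOC_Os01g59100 had 2439, 2186 and 2801 against 1440, 960 and 1229, at 1.08 ± 0.18. In both genes every csa library was above every wild type library. Without wild type replicate 2 the ratio of LOC_Os01g59100 was 0.96 and the refit did not keep its call. LOC_Os01g50200 had 61, 78 and 78 against 14, 15 and 28, a log2 ratio of 2.00 ± 0.30. The sterol glucosyltransferase-like gene LOC_Os02g11940, whose product belongs to the enzymes that attach glucose to membrane sterols, had 553, 505 and 532 counts in csa against 275, 141 and 205 in wild type. Its log2 ratio was 1.40 ± 0.28 and the genotypes did not overlap. Among the other 14 higher glycosyltransferases at 6 h, the log2 ratio ran from 1.07 ± 0.28 for LOC_Os09g30980 to 2.21 ± 0.43 for LOC_Os06g11270, and the genotypes overlapped in 1, LOC_Os04g12960. LOC_Os06g11270 had at most 16 counts in any library.

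**Figure D2:**
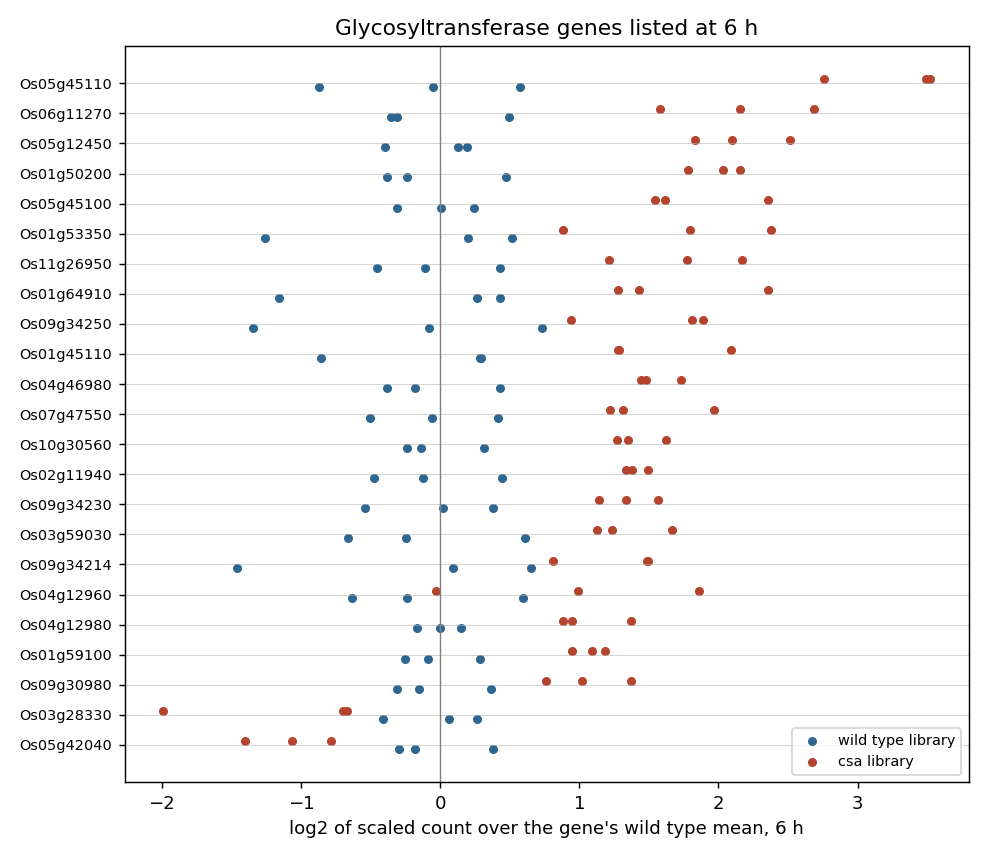
Each library's scaled count at 6 h over the gene's wild type mean, on a log2 scale, for the 23 listed glycosyltransferase genes, in order of their ratio. The csa points lie right of all wild type points in 20 genes, overlap them in LOC_Os04g12960, and lie left of them in sucrose synthase (LOC_Os03g28330) and LOC_Os05g42040. The genotypes were thus apart in 22 of 23 genes (95.7%), beside 97.3% of all listed genes, which is no result about the family.

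On the lower side at 6 h, the sucrose synthase gene SUS1 (LOC_Os03g28330), whose product splits sucrose, had raw counts of 35364, 35554 and 15528 in csa against 61378, 68886 and 49088 in wild type. Csa replicate 3 was the lowest, and the groups did not overlap. The log2 ratio of -1.0 ± 0.41 was the one nearest to the fold threshold at 6 h. The edgeR refit did not keep it and the DESeq2 refit did. LOC_Os05g42040 had 27, 22 and 19 counts against 39, 41 and 69, at -1.06 ± 0.28, and neither refit kept it.

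At 3 h the picture among glycosyltransferases was divided. LOC_Os04g25440, annotated only as a glucosyltransferase, had raw counts of 746, 909 and 669 in csa against 399, 394 and 327 in wild type, a log2 ratio of 1.13 ± 0.18. Every csa library was higher, although with TMM factors its log2 ratio was -0.12. LOC_Os11g26920 had 24, 41 and 21 counts against 12, 4 and 5, at 2.11 ± 0.63, and LOC_Os01g49240 had 35, 20 and 16 against 7, 12 and 7, at 1.52 ± 0.44. Both rest on few counts, with no overlap of the genotypes. LOC_Os06g39270 was lower, with 507, 382 and 624 counts in csa against 1451, 1094 and 733 in wild type, a log2 ratio of -1.05 ± 0.34 and again no overlap. The other 4 lower glycosyltransferases at 3 h were all listed again at 6 h, in the opposite direction.

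Genes listed at both 3 h and 6 h numbered 326 in all, once a doubled identifier was set aside, and 45 of them, 13.8%, took opposite directions at the 2 times. Among the members the numbers were 10 and 6, that is 60%, against 39 of the 316 other genes, 12.3%. The 6 members made up 13.3% of the opposite genes. Of these 6, 5 were lower in csa at 3 h and higher at 6 h, against 12 of the 39 others, and 1 went the other way. The genotype by time term, tested with edgeR's quasi-likelihood test over the 326 genes with Benjamini-Hochberg adjustment, passed an adjusted p of 0.05 in 57 genes (17.5%). All 45 opposite genes were among these, and opposite listed directions alone force a difference of at least 2 on the log2 scale.

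**Figure D3:**
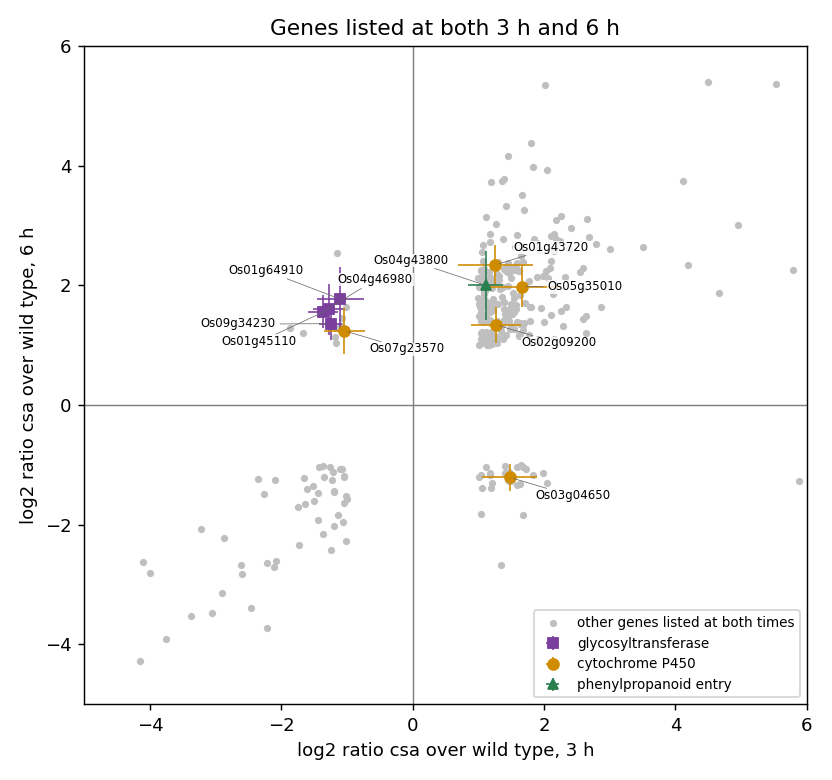
Log2 ratio of csa over wild type at 3 h (horizontal) and at 6 h (vertical) for the genes listed at both times, with members in colour and bars of 1 standard error. The 4 glycosyltransferases and the P450 gene LOC_Os07g23570 lie in the upper left, lower in csa at 3 h and higher at 6 h, LOC_Os03g04650 lies in the lower right, and the other 4 members lie in the upper right, where LOC_Os01g43720, LOC_Os02g09200 and LOC_Os04g43800 fall just left of 0 at 3 h with TMM factors.

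The most highly counted of the opposite members was LOC_Os09g34230, similar to indole-3-acetate beta-glucosyltransferase, an enzyme type that attaches glucose to the auxin indole-3-acetic acid. At 3 h its raw counts were 4632, 5044 and 5261 in csa against 14776, 10555 and 11955 in wild type. At 6 h they were 5040, 5839 and 4760 in csa against 2671, 2023 and 1567 in wild type. The csa libraries of both times thus covered one range, while all 3 wild type libraries stood above it at 3 h and below it at 6 h. The log2 ratio went from -1.25 ± 0.17 to 1.36 ± 0.28, a difference of 2.60 by edgeR's quasi-likelihood test (adjusted p = 0.000108), with adjusted p values between 9.73e-08 and 0.0009 over the alternatives.

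Zeatin is a cytokinin, and LOC_Os04g46980 is annotated as similar to cis-zeatin O-glucosyltransferase 1, which attaches glucose to its cis form. Its raw counts at 3 h were 78, 56 and 79 in csa against 237, 172 and 165 in wild type. At 6 h they were 95, 77 and 86 in csa against 26, 22 and 44 in wild type. Again the csa counts overlapped between the times and the wild type counts did not. The log2 ratio was -1.36 ± 0.23 at 3 h and 1.56 ± 0.27 at 6 h, and edgeR gave a difference of 2.91 (adjusted p = 0.000108; 1.54e-07 to 0.00108 over the alternatives).

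The UGT gene LOC_Os01g45110 had 679, 660 and 408 raw counts in csa against 1624, 1410 and 1415 in wild type at 3 h, and 634, 623 and 1190 against 328, 318 and 164 at 6 h. Its log2 ratios were -1.27 ± 0.24 and 1.60 ± 0.43, with a difference of 2.88 in edgeR (adjusted p = 0.000108; 1.11e-06 to 0.00121 over the alternatives). LOC_Os01g64910, similar to anthocyanidin 5,3-O-glucosyltransferase, which adds sugars to the anthocyanidin pigment core, had 110, 125 and 50 counts in csa against 229, 206 and 212 in wild type at 3 h. At 6 h it had 90, 99 and 204 against 46, 50 and 19. Its log2 ratios were -1.10 ± 0.36 and 1.77 ± 0.54, with a difference of 2.88 in edgeR (adjusted p = 0.000277; 3.09e-05 to 0.00372 over the alternatives). In both genes the genotypes were apart at each time. The edgeR refit did not keep the 3 h call of LOC_Os01g64910 without csa replicate 1, csa replicate 3 or wild type replicate 1. Its ratio was -0.79 without csa replicate 3. The other calls of both genes were kept whichever library was left out.

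A pair of P450 genes completed the opposite members, and they ran against each other. LOC_Os07g23570 had raw counts of 1702, 1111 and 822 in csa against 2642, 2313 and 2886 in wild type at 3 h, and 767, 1406 and 1155 against 396, 638 and 409 at 6 h. Its log2 ratio of -1.04 ± 0.31 at 3 h, the nearest to the fold threshold at that time, became 1.24 ± 0.38 at 6 h. The difference was 2.28 in edgeR (adjusted p = 0.000591; 4.78e-05 to 0.018 over the alternatives). LOC_Os03g04650 had 80, 112 and 56 counts in csa against 35, 40 and 19 in wild type at 3 h, and 107, 118 and 108 against 277, 305 and 207 at 6 h. Its log2 ratio went from 1.48 ± 0.42 to -1.21 ± 0.22, a difference of -2.68 in edgeR (adjusted p = 0.000223, and 6.47e-06 to 0.00186 over the alternatives). The edgeR refit did not keep the 3 h call of LOC_Os03g04650 without wild type replicate 3.

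All 6 opposite members had csa counts whose ranges at 3 h and 6 h overlapped and wild type counts whose ranges did not. The same held for 29 of the 39 other opposite genes (74.4%), for 2 of the other 4 members of both times, and for 110 of all 326 genes (33.7%), so it is not particular to the 6. In raw counts, the change from 3 h to 6 h lay between -0.13 and 0.49 on the log2 scale in csa. In wild type it lay between -2.64 and -2.44 for the 5 that were higher in csa at 6 h and was 3.07 for LOC_Os03g04650. Over all 326 genes listed at both times the median change was -0.60 in csa against -0.88 in wild type. The tables of the 2 times were scaled separately and library totals are unknown, so these changes across time carry no test.

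**Figure D4:**
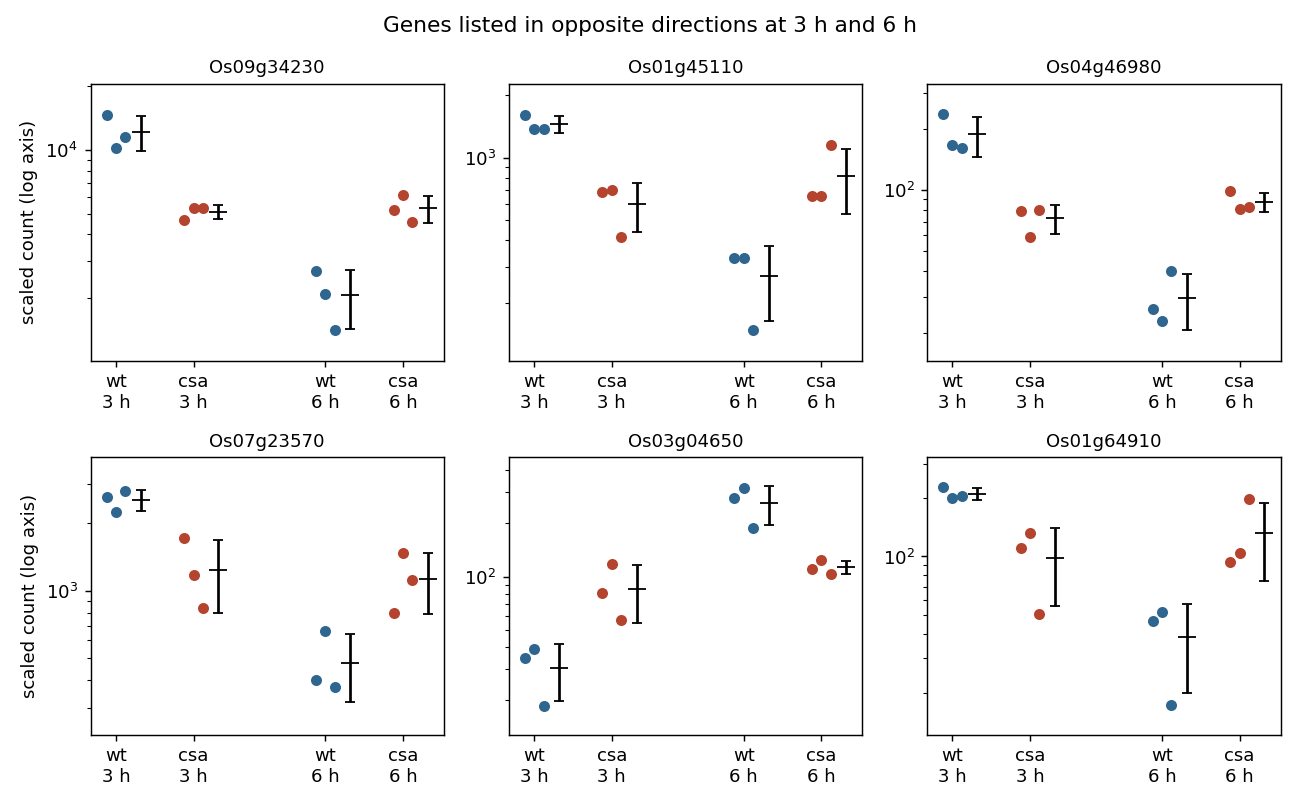
Scaled counts of every library at 3 h and 6 h on a log axis for the 6 members with opposite directions, wild type in blue and csa in red, with the mean and SD (n = 3) beside each group. The csa groups of the 2 times lie at similar heights, whereas wild type lies lower at 6 h than at 3 h in 5 genes and higher in LOC_Os03g04650. Scaling was made separately for each time.

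The other 4 members of both times were higher in csa at both, and their genotype by time term did not pass in edgeR, with adjusted p values of 0.323, 0.323, 0.937 and 1. They were the P450 genes LOC_Os01g43720, LOC_Os02g09200 and LOC_Os05g35010 and the phenylalanine ammonia-lyase-like gene LOC_Os04g43800. LOC_Os01g43720 had 104, 139 and 37 raw counts in csa against 37, 59 and 28 in wild type at 3 h and 27, 54 and 67 against 11, 8 and 11 at 6 h, with log2 ratios of 1.26 ± 0.57 and 2.34 ± 0.34. The genotypes overlapped at 3 h and not at 6 h. LOC_Os02g09200 stood at 1.27 ± 0.38 and 1.34 ± 0.30, and LOC_Os05g35010, with at most 38 counts in any library, at 1.67 ± 0.58 and 1.98 ± 0.34.

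Cytochrome P450 genes were mostly higher in csa at 3 h and of both directions at 6 h. At 3 h, 11 of 13 were higher (84.6%, beside 71% of all listed genes), with a median deposited log2 fold change of 1.48, and with TMM factors 8 were higher and 5 lower. At 6 h, 17 of 29 were higher and 12 lower, a share of 58.6% beside 58.4% of all listed genes. The count at 3 h leaned on single libraries. In 9 of the 11 higher P450 genes csa replicate 2 was the highest csa library (81.8%, against 68.7% of all higher listed genes). An edgeR refit kept 4 of the 11 higher calls without that library and 3 without wild type replicate 3. Over all listed genes these refits kept 62.2% and 65.2% of the calls, so part of the loss is general. At 6 h the refit of all libraries kept 16 higher and 11 lower calls.

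At 3 h the largest P450 ratio belonged to LOC_Os05g11130, similar to CYP90D10, of a P450 subfamily that takes part in brassinosteroid synthesis. Its raw counts were 54, 54 and 18 in csa against 8, 7 and 8 in wild type. Every csa library was higher, replicate 3 least so, and the log2 ratio was 2.53 ± 0.42. LOC_Os06g43370, similar to CYP71Y10, had 153, 142 and 77 counts against 50, 40 and 18, at 1.86 ± 0.48, with an FDR of 1.09e-05 in the authors' deposited table. LOC_Os03g04190 (CYP78A9), of a P450 family known for its part in organ growth, had 45, 130 and 76 against 42, 33 and 17, at 1.53 ± 0.57. Its lowest csa library stood only just above the highest wild type library. LOC_Os06g22340 had 64, 110 and 56 against 29, 40 and 30, at 1.30 ± 0.37. The other 3 higher P450 genes of 3 h alone, LOC_Os10g36848, LOC_Os04g18380 and LOC_Os02g09190, stood at 1.25 ± 0.33, 1.5 ± 0.30 and 1.60 ± 0.57, with at most 54 counts in any library.

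LOC_Os06g46680 was the other P450 gene lower at 3 h beside LOC_Os07g23570. It had 2498, 1370 and 2564 counts in csa against 4293, 4750 and 5327 in wild type, a log2 ratio of -1.09 ± 0.26. The highest csa library stayed well below the lowest wild type library.

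At 6 h the P450 genes with the clearest differences lay in both directions. LOC_Os01g43750 had raw counts of 116, 182 and 173 in csa against 38, 35 and 44 in wild type, a log2 ratio of 2.06 ± 0.19 and an FDR of 1.42e-10 in the authors' deposited table. LOC_Os08g43390, similar to CYP78A1, had 102, 141 and 149 against 40, 35 and 23, at 2.02 ± 0.30. In both, all csa libraries stood above all wild type libraries. LOC_Os10g37160 ran the other way with 23, 16 and 12 against 82, 63 and 128, at -2.34 ± 0.38. LOC_Os06g19070 had 38, 32 and 38 against 108, 105 and 233, at -1.97 ± 0.35, and LOC_Os03g14400 had 27, 29 and 27 against 81, 97 and 103, at -1.71 ± 0.11. The csa libraries of the last gene agreed within 2 raw counts. LOC_Os07g44140 was highly counted, with 2569, 3003 and 2594 against 1296, 1464 and 968, at 1.16 ± 0.24, and LOC_Os10g08540 had 648, 589 and 1079 against 376, 295 and 309, at 1.27 ± 0.28. LOC_Os02g09240 was lower, with 147, 139 and 110 against 260, 272 and 397, at -1.16 ± 0.21.

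Of the remaining P450 members at 6 h, 7 were higher, from 1.01 ± 0.47 for LOC_Os03g25490 to 1.89 ± 0.45 for LOC_Os08g39694, and 4 lower, from -1.13 ± 0.49 for LOC_Os06g03930 to -2.12 ± 0.44 for LOC_Os10g09160. The genotypes overlapped in 2 of these, LOC_Os06g03930 and LOC_Os01g38110.

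At 6 h, 3 listed P450 members carry names in RefSeq, and all belong to families that act on hormones. LOC_Os09g28390 is ABA8OX3, the gene of an 8'-hydroxylase that starts abscisic acid breakdown, with 52, 90 and 53 counts in csa against 89, 115 and 261 in wild type. The genotypes overlapped, and the log2 ratio of -1.16 ± 0.53 became -0.65 without wild type replicate 3. LOC_Os02g11020 is CYP734A2, of a family whose enzymes inactivate brassinosteroids, with 105, 63 and 43 counts against 163, 200 and 114, at -1.14 ± 0.48. Its genotypes touched, since wild type replicate 3 lay near csa replicate 1 and fell below it once scaled. LOC_Os12g02640 is CYP714C2, of a family with gibberellin-oxidising members, with 40, 36 and 59 counts against 19, 21 and 18, at 1.25 ± 0.22 and no overlap. These 3 genes were chosen for their names after their values were seen.

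At 12 h the single member was PLA1 (LOC_Os10g26340), which encodes CYP78A11 and is known for setting the pace of leaf initiation. Its raw counts were 524, 496 and 316 in csa against 266, 186 and 229 in wild type. All csa libraries were higher, csa replicate 3 least so. The log2 ratio was 1.02 ± 0.26 with an FDR of 0.0395 in the authors' deposited table. No refit with edgeR or DESeq2 kept the call, although its unadjusted p in edgeR was 0.00701 against a limit of 0.000255. Of all 85 calls at 12 h, the edgeR refit kept 45.9% and the DESeq2 refit 63.5%. The sample with the mutant in its genotype field is the last of the wild type values.

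Of the 7 phenylpropanoid members at 6 h, 3 were higher and 4 lower in csa. This count mixes phenylalanine ammonia-lyase genes, at the entry of the pathway, with cinnamoyl-CoA reductase genes of the later lignin branch. Of the 4 phenylalanine ammonia-lyase genes, LOC_Os02g41630 (PAL in RefSeq), LOC_Os02g41670 and LOC_Os05g35290 were lower and LOC_Os04g43800 was higher. LOC_Os02g41670 had raw counts of 14, 5 and 5 in csa against 43, 18 and 257 in wild type. LOC_Os05g35290 had 30, 11 and 13 against 55, 47 and 534. In both genes the groups did not overlap, but wild type replicate 3 held most of the wild type counts. Their log2 ratios of -3.59 ± 1.14 and -3.42 ± 1.17 became -1.92 and -1.50 without that library. The edgeR refit kept both genes with or without it. The DESeq2 refit of all libraries kept the first and not the second, where a missing p-value also counted as not kept. LOC_Os02g41630 had 1796, 1157 and 458 counts against 1975, 2665 and 3247, at -1.13 ± 0.53, and -1.02 without wild type replicate 3. The edgeR refit of all 6 libraries did not keep that gene, while the DESeq2 refit did.

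LOC_Os04g43800 was the phenylalanine ammonia-lyase gene higher in csa at 6 h and the single phenylpropanoid member listed at 3 h. It had 877, 1022 and 546 raw counts in csa against 417, 406 and 370 in wild type at 3 h, and 316, 408 and 956 against 101, 108 and 224 at 6 h. Every csa library was above every wild type library at each time, with log2 ratios of 1.11 ± 0.27 and 2.00 ± 0.58. At 3 h the edgeR refit did not keep the call without csa replicate 2, and with TMM factors the ratio was -0.14. At 6 h the ratio ranged with the library left out, from 1.44 without csa replicate 3 to 2.38 without wild type replicate 3, and the refit kept the call each time.

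Cinnamoyl-CoA reductase opens the branch that leads to lignin. LOC_Os08g34280, of this type, had raw counts of 95, 51 and 44 in csa against 139, 256 and 401 in wild type at 6 h, a log2 ratio of -1.99 ± 0.53. LOC_Os06g41800 had 37, 28 and 36 against 21, 7 and 18, at 1.19 ± 0.41, and the edgeR refit did not keep it. LOC_Os08g17500 had 8, 20 and 8 counts in csa against 0, 0 and 1 in wild type. With 36 counts against 1 over the libraries, the ratio was 37.2, with a 95% interval from 6.26 to 1509 that covers counting error only.

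**Figure D5:**
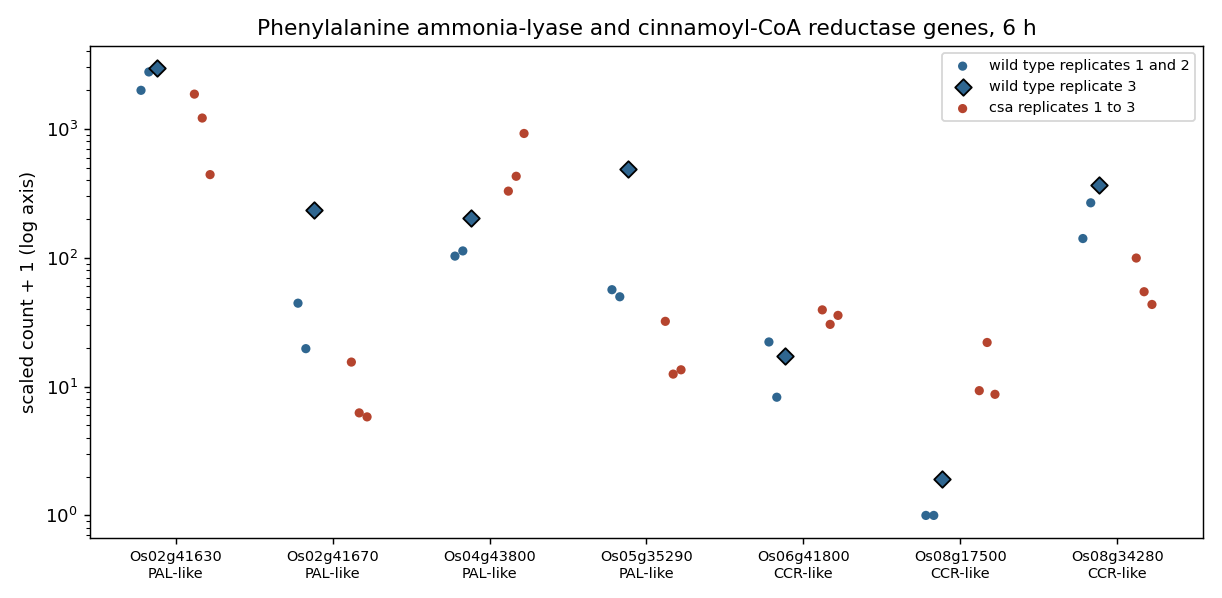
Scaled counts plus 1 on a log axis for the 4 phenylalanine ammonia-lyase-like (PAL) and 3 cinnamoyl-CoA reductase-like (CCR) members at 6 h, with wild type replicate 3 drawn as a diamond. That library is the highest wild type value in 6 of the 7 genes, by 7.54 times the mean of the other wild type libraries in LOC_Os02g41670 and by 9.32 times in LOC_Os05g35290.

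Wild type replicate 3 was the highest wild type library in 15 of the 21 lower members at 6 h, 71.4%, against 406 of 993 lower listed genes, 40.9%. Over the 65 members its scaled counts lay, in the median, 0.656 log2 units from those of its group, where the other 5 libraries lay at 0.345 to 0.511. Over all listed genes it lay at 0.392, less far than csa replicate 3 at 0.496 and wild type replicate 1 at 0.412. When it was dropped, an edgeR refit kept 46 of the 65 member calls, 32 higher and 14 lower, beside 78.8% of all listed calls. As many, 46, were kept without csa replicate 2, and 43 without wild type replicate 2. A list of neighbouring pathways held other listed genes whose annotation named, among others, lignin, isoprenoid, shikimate, flavonoid, dioxygenase or O-methyltransferase enzymes. Wild type replicate 3 was also the highest wild type library in 11 of 13 lower genes of this list at 6 h and in 1 of its 7 higher genes. The 4-coumarate-CoA ligase gene LOC_Os02g08100, whose product activates coumaric acid, had 216, 97 and 76 against 260, 372 and 1008, a log2 ratio of -1.97 ± 0.75 that became -1.29 without it. The caffeic acid O-methyltransferase gene LOC_Os08g06100, of lignin synthesis, had 178, 96 and 116 against 207, 183 and 619, and -1.28 ± 0.62 became -0.59. The prephenate dehydratase gene LOC_Os04g33390, of phenylalanine synthesis, went from -1.06 ± 0.46 to -0.59. For the last 2 genes the refit without that library did not keep the call. The cinnamyl alcohol dehydrogenase gene LOC_Os01g34480, of the last step to the lignin units, differed from these, with 2027, 2010 and 2787 against 1367, 1016 and 1106, wild type replicate 1 the highest, and a log2 ratio of 1.0 ± 0.19. These 4 genes were chosen after their values were seen.

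Flavonoid members were few and divided at 6 h. The chalcone isomerase gene CHI (LOC_Os03g60509), which closes the flavonoid ring, had raw counts of 196, 226 and 160 in csa against 125, 52 and 120 in wild type, at 1.04 ± 0.37. LOC_Os06g10210, with a chalcone isomerase domain, had 293, 274 and 355 against 162, 139 and 170, at 1.01 ± 0.09. Of the lower pair, LOC_Os11g02440, with the same domain, had 38, 24 and 16 against 56, 68 and 137, at -1.65 ± 0.52. LOC_Os01g61610, similar to leucoanthocyanidin dioxygenase, which forms anthocyanidins, had 49, 30 and 17 against 67, 94 and 127, at -1.51 ± 0.49. The genotypes did not overlap in any of the 4, as in 97.3% of all listed genes. The edgeR refit kept all 4, but lost CHI when any 1 of 4 libraries was left out, with a ratio of 0.75 without wild type replicate 2, and LOC_Os06g10210 when any 1 of 3 was. The flavonoid 3'-monooxygenase-like gene LOC_Os10g16974, a P450 that hydroxylates flavonoids and was counted with the P450 genes, had 43, 32 and 24 against 77, 61 and 144, at -1.43 ± 0.42. The edgeR refit did not keep that gene without wild type replicate 3, where its ratio was -1.06.

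The single terpenoid member, LOC_Os11g32090, carries a fold that terpenoid cyclases share with protein prenyltransferases, and the annotation does not say which it is. It had 4, 9 and 7 raw counts in csa against 25, 27 and 21 in wild type at 6 h, a log2 ratio of -1.83 ± 0.36. The groups were far apart for such low counts. Of 7 isoprenoid genes in the list of neighbouring pathways at 6 h, picked out after values were seen, 6 were lower and 1 higher. Of 2 at 3 h, 1 was higher and 1 lower. Beside these, 58.4% of all listed genes were higher at 6 h and 71% at 3 h. A change of the isoprenoid route as a whole was not tested. At 6 h the 1-deoxy-D-xylulose-5-phosphate synthase genes LOC_Os05g33840 and LOC_Os07g09190, of the first step of the plastid isoprenoid route, stood at -1.43 ± 0.30 and -1.91 ± 0.31, and the hydroxymethylglutaryl-CoA synthase gene LOC_Os03g02710 of the mevalonate route at -1.62 ± 0.47. The kaurene synthase A gene LOC_Os02g17780, of the diterpene branch that leads to gibberellins, stood at -1.83 ± 0.49. It rests on few raw counts, 4, 4 and 9 in csa against 27, 12 and 23 in wild type. So does the farnesyl diphosphate synthase gene LOC_Os04g56210, at -2.01 ± 0.61, with 4, 7 and 2 against 12, 15 and 29. The refit did not keep LOC_Os04g56210 without wild type replicate 3. A homogentisic acid geranylgeranyl transferase-like gene (LOC_Os06g43880) stood at -1.26 ± 0.52 and squalene monooxygenase (LOC_Os03g12910), of sterol synthesis, at 1.05 ± 0.17. Without wild type replicate 3 these became -0.71 and 1.00, and the refit kept neither call. That library was the highest wild type library in each of the lower isoprenoid genes at 6 h except LOC_Os02g17780. At 3 h geranylgeranyl reductase (LOC_Os02g51080) stood at 1.09 ± 0.19 and geranylgeranyl-diphosphate synthase (LOC_Os02g44780) at -1.04 ± 0.24. Over the whole list, which also takes in lignin, shikimate and dioxygenase genes, 4 were higher and 4 lower at 3 h. At 6 h 7 were higher and 13 lower, and at 12 h 1 was lower. The share of higher genes was 50%, 35% and 0%, beside 71%, 58.4% and 52.9% of all listed genes. Among those higher at 6 h was a protein-L-isoaspartate O-methyltransferase gene (LOC_Os04g40540), which the term O-methyltransferase caught.

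Isopenicillin N synthase-like genes of plants encode iron- and 2-oxoglutarate-type dioxygenases, a class with hormone and flavonoid enzymes. LOC_Os03g42130 had the smallest FDR of all members at 3 h, 2.35e-18 in the authors' deposited table. Its raw counts were 397, 373 and 683 in csa against 2010, 2114 and 1982 in wild type, a log2 ratio of -2.0 ± 0.29, and all csa libraries were far below all wild type libraries. LOC_Os09g39720 was higher at 6 h, with 30, 41 and 25 against 8, 13 and 4, at 1.96 ± 0.55.

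Members of one family that lay within 10 genes of each other in the RefSeq gene order formed 6 runs, with 15 members in all. In 5 runs 2 or more members were listed at 6 h, and 4 of these had a single direction. On chromosome 9 the UGT genes LOC_Os09g34214, LOC_Os09g34230 and LOC_Os09g34250 follow each other and stood at 1.30 ± 0.55, 1.36 ± 0.28 and 1.61 ± 0.59. On chromosome 1 the P450 genes LOC_Os01g43720, LOC_Os01g43750 and LOC_Os01g43851 stood at 2.34 ± 0.34, 2.06 ± 0.19 and 1.81 ± 0.42. The phenylalanine ammonia-lyase genes LOC_Os02g41630 and LOC_Os02g41670 were both lower, and the UGT genes LOC_Os04g12960 and LOC_Os04g12980 stood at 1.13 ± 0.63 and 1.09 ± 0.19. The run on chromosome 2 was divided, with LOC_Os02g09200 at 1.34 ± 0.30 and LOC_Os02g09240 at -1.16 ± 0.21. In the last run, on chromosome 11, LOC_Os11g26920 was listed at 3 h and LOC_Os11g26950, at 1.77 ± 0.37, at 6 h. Neighbouring copies can share reads, and the sources used here do not give how such reads were counted, so values of genes in 1 run are not fully separate measurements.

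The members nearest to the FDR threshold were LOC_Os02g09190 at 3 h, with 0.0445, and LOC_Os04g12960 at 6 h, with 0.0473, both in the authors' deposited tables. Genes just outside the thresholds are not analysed here.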

How the data were processed

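RNA sequencing covered 18 samples in 6 groups of 3. The 3 deposited tables, 1 per time, list called genes only, with raw read counts of each library. Per the file headers, they add the authors' log2 fold change, p-value and FDR. The submitters' processing notes name DESeq2 and no version. Aligner, counter, strand handling, treatment of shared reads and genome build are each not given in the sources used here. No column of samples was left unused (0), and depth per library is unknown.

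Scaling factors were recovered by fitting ratios of mean scaled counts to the deposited log2 fold changes (residual SD 0.00119 at 3 h, 0.00399 at 6 h, 0.00323 at 12 h). How many genes were tested followed from ranks, the deposited FDR being p times the number tested over the rank (21240 to 21244 at 12 h). The authors' calls are the main results. Alternatives refitted the listed genes in R 4.3.3 with edgeR 4.0.16 (quasi-likelihood test) and DESeq2 1.42.0. A call was kept where p was no larger than the largest deposited p (0.00694, 0.0117 and 0.000255), the absolute log2 ratio was at least 1 and the direction was the same. A call with no p-value in a refit counted as not kept, as for 1 of 65 members in the DESeq2 refit at 6 h. The alternatives covered scaling, a count minimum, other thresholds, each library left out and the replicate number as a block. The genotype by time term was fitted over the 326 genes of both tables. Scripts were tested on simulated data. Tables were made with Python 3.11.15 and pandas 2.3.3.

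RefSeq (assembly ASM3414082v1) gave names and gene order only, and 71 of 79 members matched by gene number, 1 of them, LOC_Os05g45110, to a gene on another chromosome than its identifier names. Members, lists and rules were chosen with earlier results of these data known. Genes named with full values are, per time and direction, the 6 P450 and 6 glycosyltransferase members and the 4 of each other family with the smallest FDR, plus every member listed at more than 1 time, and a gene outside that rule was named for a range, an overlap, its name in RefSeq, its place in a run or to complete a small count. Promoter motifs were not analysed here.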

Additional observations from a re-analysis of the deposited data

Results flagged for a closer look

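In 6 members the effect of csa at 6 h differed from that at 3 h, by edgeR's test of the genotype by time term over the 326 genes of both tables, which 57 genes passed (17.5%). These 6 were listed in opposite directions at the 2 times, which by itself forces a difference of at least 2, and all 45 genes listed so passed, so the test adds no separate support. The differences, 6 h minus 3 h on the log2 scale, were 2.60 for the indole-3-acetate glucosyltransferase-like gene LOC_Os09g34230, 2.91 for the cis-zeatin O-glucosyltransferase-like gene LOC_Os04g46980, 2.88 for the UGT gene LOC_Os01g45110 and 2.88 for the anthocyanidin glucosyltransferase-like gene LOC_Os01g64910. For the P450 genes they were 2.28 for LOC_Os07g23570 and -2.68 for LOC_Os03g04650. The largest adjusted p of the 6 in edgeR was 0.000591. In 5 of them csa was lower at 3 h and higher at 6 h in 3 of 3 libraries each, and in LOC_Os03g04650 the reverse. At a single time the genotypes did not overlap in 96.2% of all listed genes at 3 h and 97.3% at 6 h, so this adds no support either.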

How the results depend on the processing

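Calls of members were compared with refits and other thresholds. At 3 h, 23 calls became 8 with TMM factors, 3 at an absolute log2 fold change of at least 2, and 11 to 22 with 1 library left out, the fewest without csa replicate 2 (11) and wild type replicate 3 (13). At 6 h, 65 became 32 with TMM factors, 12 at the larger fold change, and 43 to 53 with 1 library left out, 43 without wild type replicate 2. Over all listed genes, TMM factors kept 33% and 59.8% of the calls at 3 h and 6 h. Leaving 1 library out kept 62.2% to 87.7% and 66% to 82% of them. At 12 h, the single call became 0 in every edgeR and DESeq2 refit (0 to 0 with 1 library left out). It became 0 at the larger fold change, 0 at an FDR of at most 0.01, and 3 with the genes that the rule leaves out. Of all 85 calls at 12 h, the edgeR refit kept 45.9%, the DESeq2 refit 63.5% and those with 1 library left out 15.3% to 36.5%. The cause was not tested, except that TMM assumes that most of the listed genes do not differ, and these were listed for differing, more of them higher in csa. All 6 genotype by time calls passed under each alternative run, while the number over all 326 genes ran from 50 to 75. The 6 were listed in opposite directions, which forces a difference of at least 2, so this adds no separate support. Of 669 refits of the named genes, 548 kept the call, 117 lost it and 4 reversed, all with TMM factors at 3 h: LOC_Os01g43720 at -0.02, LOC_Os02g09200 at -0.02, LOC_Os04g25440 at -0.12 and LOC_Os04g43800 at -0.14. Of 121 values from medians or unscaled counts, with no test, 12 were under 1 in size and 0 moved by over 1 SD. A median of 3 values lies close to their mean, and the scaling factors lay between 0.919 and 1.1. A move of that size could therefore hardly occur, so this adds no support. One left-out library moved a ratio by over 1.5 times in 3 members at 6 h, LOC_Os08g17500, LOC_Os02g41670 and LOC_Os05g35290. That is 4.62% of the members, close to the 4.32% of all listed genes, and no result about the members. At 3 h 7 members and at 6 h 35 were kept whichever library was left out.

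Whether replicate numbers pair the samples is not settled. Deviations of same-numbered libraries correlated at -0.05, 0.22 and 0.24 at 3 h, -0.21, 0.29 and 0.18 at 6 h, and 0.01, 0.08 and 0.04 at 12 h. Those of libraries with other numbers ran from -0.30 to 0.11, from -0.40 to 0.30 and from -0.21 to 0.15. With the replicate block 23, 64 and 0 calls were kept, beside 23, 58 and 0 in the edgeR refit without it. The block kept 6 genotype by time calls. Depth limits members with few counts, such as LOC_Os08g17500 and LOC_Os11g32090.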
